A study of Oryza sativa with 6 samples.

Results

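The CESA genes of rice encode the catalytic subunits of cellulose synthase, and CESA1 to CESA9 were taken by name from the symbols and synonyms of the gene annotation. These members were chosen with earlier results of these data known. All 9 genes were found on the array and were read by 13 probe sets that the annotation ties to a single gene, out of 17905 genes with such a probe set. Of the 9, 5 genes had 1 probe set and 4 genes (CESA1, CESA2, CESA3 and CESA4) had 2. Transcripts were measured in young uppermost internodes, the elongating stem segment below the panicle, of wild type Nipponbare and of the line coi1-13. The line is named after COI1, the F-box protein of jasmonate perception. Each genotype was represented by 3 Affymetrix rice arrays of total RNA, numbered by the labels as biological replicates 1 to 3. The labels name no treatment, plant age, transgene or pooling. They do not say how the coi1-13 line was made or what its COI1 transcript level is, and the genotype of each array rests on its label.

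Cellulose is spun at the plasma membrane by rosette-shaped complexes that hold several different CESA subunits and extrude glucan chains as microfibrils. One set of subunits works in growing cells, where the thin primary wall is laid down, and another in cells such as fibres and xylem vessels, which thicken their walls after growth has ended. In rice, CESA4, CESA7 and CESA9 form the secondary wall set, and loss of any of them gives the brittle culm phenotype, a stem that snaps when bent. The other 6 genes, CESA1, CESA2, CESA3, CESA5, CESA6 and CESA8, were taken as the primary wall class. The elongating internode holds both kinds of cells.

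The 6 arrays had already been scaled to 1 level by the depositors, and the number of arrays limits the precision. A group of 33 negative control probe sets (fungal, synthetic tag and tryptophan spike probes) gave the background on each array: their highest log2 signal was 4.93 to 5.11 in wild type and 5.26 to 5.56 in coi1-13. Of the 13 CESA probe sets, 12 lay above it on all 6 arrays. The exception was the dimmer of the CESA2 probe sets. The probes' own sequences were not used here, so how far a probe set also reads another member of this family of similar genes was not tested. Over the whole array 34355 probe sets were tested with limma at a Benjamini-Hochberg adjusted p under 0.05: 16.5% of them (5679) passed as higher in coi1-13 and 19.4% (6668) as lower. When each array was centred on its median the split became 3721 higher and 9522 lower, and the median change over the array moved from -0.01 to -0.13 on the log2 scale.

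CESA transcripts were lower in coi1-13 across both wall classes. Of the 13 probe sets, 9 fell, none rose and 4 did not pass (limma, adjusted p under 0.05), against 19.4% of all tested probe sets that were lower. At an unadjusted p under 0.05 the counts were the same, 9 lower and 0 higher. The share of all tested probe sets at that threshold was not counted, so these counts have no background beside them. The 9 belonged to 8 of the 9 genes, with CESA2 the gene that had no call. The same 9 probe sets were those in which every coi1-13 array lay below every wild type array, a pattern seen in 25.4% of all tested probe sets. The falls were small: they ran from 1.13-fold for CESA3 to 1.38-fold for CESA8, and 0 of the 9 reached 2-fold. All 9 were also called lower under median centring, quantile normalization and cyclic loess, where 27.7%, 19.1% and 18.0% of all tested probe sets were lower. Each array holds the RNA of whole internodes, so fewer cells of a type and less transcript per cell cannot be told apart.

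**Figure D1:**
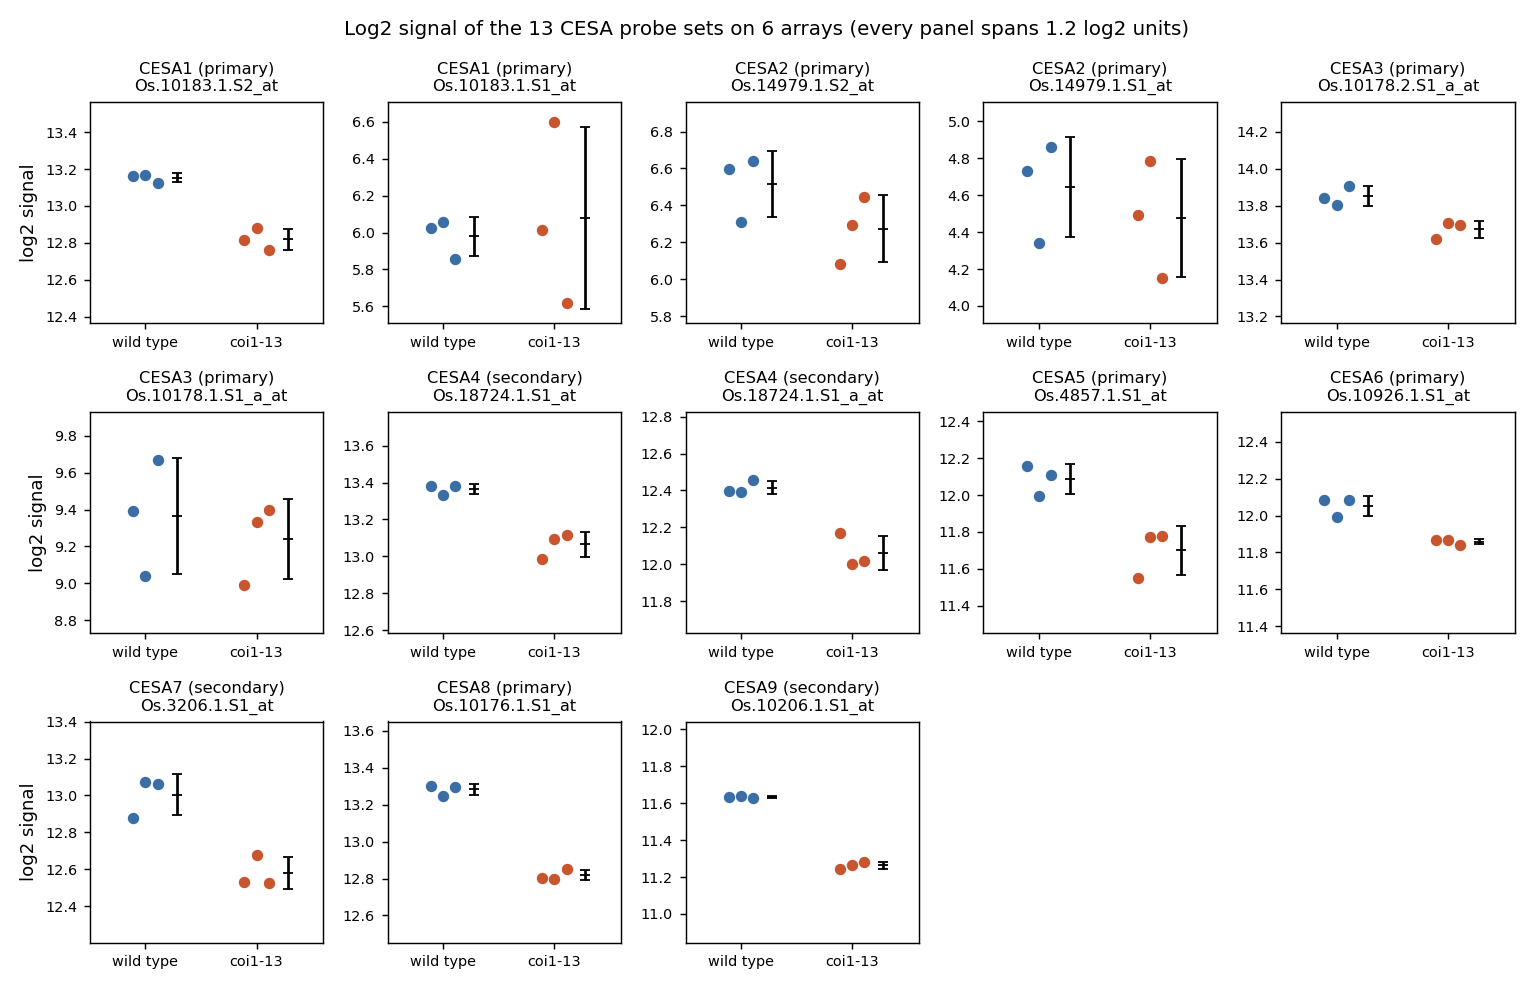
Log2 signal of each of the 13 CESA probe sets on the 3 wild type (blue) and 3 coi1-13 (orange) arrays, with the group mean and SD as black bars; every panel spans the same range on the vertical axis. In 9 panels the coi1-13 points lie wholly below the wild type points, and in the panels of CESA2 and of the dimmer CESA1 and CESA3 probe sets they overlap.

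Among the primary wall subunits, CESA8 showed the steepest fall. CESA8 (gene 4342699) had log2 signals of 13.30, 13.25 and 13.30 on the wild type arrays and 12.81, 12.80 and 12.85 on the coi1-13 arrays. The groups were separated by a gap of 0.39, many times the SD of 0.03 within either genotype. The difference was -0.46 ± 0.03 (SE, n = 3 each; limma adjusted p = 2.24e-06), which left 72.5% of the wild type signal. In 4.77% of the brightest decile of tested probe sets the change lay lower than in CESA8. For the other called CESA probe sets that share ran from 6.05% for CESA7 to 28.1% for CESA3.

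CESA1 and CESA3 are, with CESA8, the subunits usually named as the core of the rice primary wall complex. CESA1 (gene 4337958) stood, in its brighter probe set, at 13.16, 13.17 and 13.12 in wild type and at 12.82, 12.88 and 12.76 in coi1-13. The difference of -0.33 ± 0.04 (SE; limma adjusted p = 6.12e-05) amounted to a 1.26-fold fall, and the 2 groups did not overlap. The dimmer CESA1 probe set gave 6.02, 6.06 and 5.86 in wild type and 6.02, 6.60 and 5.62 in coi1-13. It was dim and did not separate the genotypes (0.10, 95% interval -0.53 to 0.73; limma adjusted p = 0.827). That interval holds both no change and the fall of the bright probe set.

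CESA3 had the smallest fall that passed. Its bright probe set (gene 4343049) read 13.84, 13.80 and 13.91 in wild type and 13.62, 13.70 and 13.69 in coi1-13, with a gap of 0.10 between the groups. The difference was -0.18 ± 0.04 (SE; limma adjusted p = 0.00402), and it lost its call without the variance trend (adjusted p = 0.0636), a fit in which 15.2% of all tested probe sets were lower. The dimmer CESA3 probe set read 9.39, 9.04 and 9.67 in wild type and 8.99, 9.33 and 9.40 in coi1-13. Its groups overlapped and it did not pass (-0.12, 95% interval -0.46 to 0.21; limma adjusted p = 0.571).

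CESA5 and CESA6 are the other primary wall subunits with a bright signal. CESA5 (gene 4334710) had log2 signals of 12.16, 12.00 and 12.11 in wild type and 11.55, 11.77 and 11.78 in coi1-13. It varied most among replicates of the called probe sets in coi1-13 (SD 0.13), with replicate 1 the lowest array, and still fell by 0.39 (SE 0.07; limma adjusted p = 0.00092). CESA6 (gene 4342850) read 12.08, 11.99 and 12.08 in wild type and 11.87, 11.87 and 11.84 in coi1-13. Its fall of 0.19 (SE 0.04; limma adjusted p = 0.00289) was close in size to that of CESA3, and the 95% intervals of the 2 changes, -0.28 to -0.11 and -0.27 to -0.09, overlapped almost wholly.

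CESA2 (gene 4334515) was the dim member of the family in this tissue. Its brighter probe set lay at 6.60, 6.31 and 6.64 in wild type and at 6.08, 6.29 and 6.44 in coi1-13, above the negative controls on all arrays. The groups overlapped, and the difference of -0.24 did not pass (95% interval -0.70 to 0.21; limma adjusted p = 0.407). The interval includes a fall as large as that of CESA8, so a change of CESA2 was not measurable at this signal. The dimmer one, with signals of 4.15 to 4.86, exceeded the negative controls on none of the 6 arrays.

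**Figure D2:**
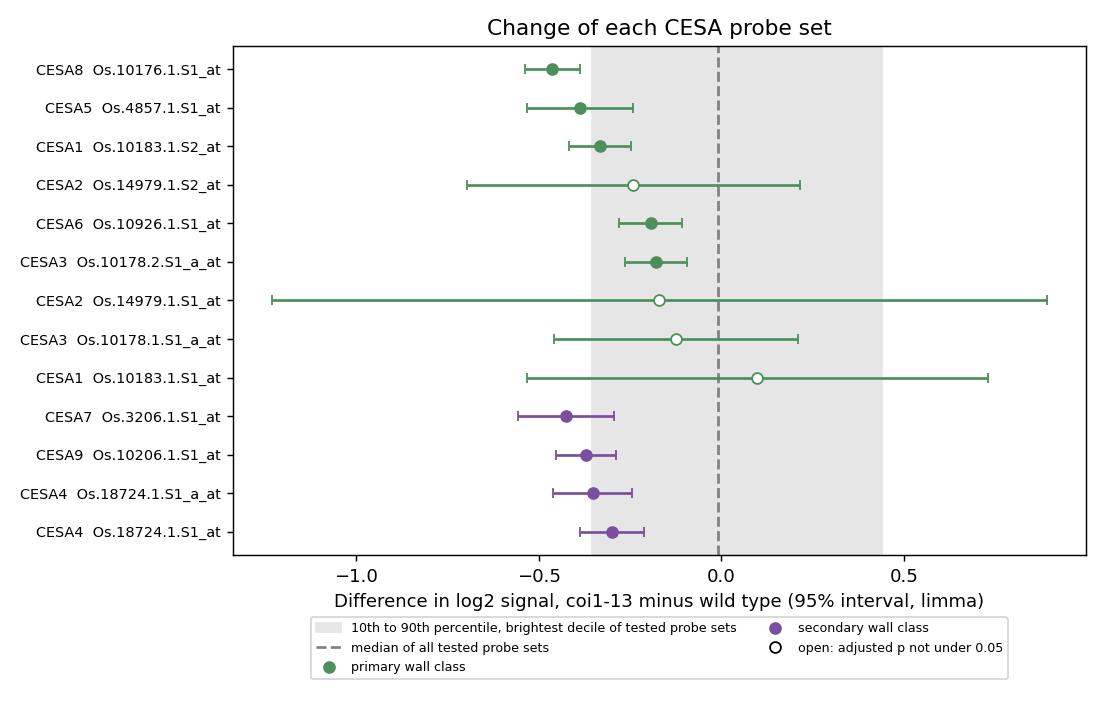
Difference in log2 signal (coi1-13 minus wild type) of each CESA probe set with its 95% interval from limma, primary wall class in green and secondary wall class in purple; open circles did not pass. The grey band is the 10th to 90th percentile of change in the brightest decile of tested probe sets (-0.35 to 0.44), and the dashed line is the median of all tested probe sets (-0.01). The 9 filled circles lie between -0.46 and -0.18. Those of CESA1, CESA3, CESA4 and CESA6 lie inside the grey band, and those of CESA5, CESA7, CESA8 and CESA9 lie below it.

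All 3 secondary wall subunits were lower in coi1-13, and CESA7 showed the steepest fall among them. CESA7 (gene 4348853) had log2 signals of 12.88, 13.07 and 13.06 in wild type and 12.53, 12.68 and 12.53 in coi1-13. The lowest wild type array, replicate 1, still lay 0.20 above the highest coi1-13 array. The difference was -0.43 ± 0.06 (SE, n = 3 each; limma adjusted p = 0.000242), or 74.4% of the wild type signal.

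CESA9 (gene 4347093) varied little among replicates, with 11.63, 11.64 and 11.63 in wild type and 11.25, 11.26 and 11.28 in coi1-13. Its fall of 0.37 (SE 0.04; limma adjusted p = 2.24e-05) compares with SDs of 0.006 and 0.019 within the genotypes. It was the called CESA probe set that lay just outside the brightest decile of the array.

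CESA4 (gene 4324625) was read by 2 bright probe sets designed on the same cDNA, which share their source and are not independent. The brighter one gave 13.38, 13.33 and 13.38 in wild type and 12.99, 13.09 and 13.11 in coi1-13. The dimmer one gave 12.40, 12.39 and 12.45 in wild type and 12.17, 12.00 and 12.02 in coi1-13. The groups were apart in both, with differences of -0.30 ± 0.04 and -0.35 ± 0.05 (SE; limma adjusted p = 0.000184 and 0.000219). They differed in which coi1-13 array was lowest, replicate 1 for the first and replicate 2 for the second. No single array was the lowest throughout: over the 9 called probe sets, coi1-13 replicates 1, 2 and 3 were lowest in 4, 2 and 3.

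The wall classes were set side by side with 1 probe set per gene, the one with the highest mean signal. Of 6 primary wall genes 5 fell and 1 did not pass, and of 3 secondary wall genes 3 fell, against 26.7% of 16706 tested genes that were lower. The median log2 change was -0.29 in the primary class, with a range from -0.46 to -0.18, and -0.37 in the secondary class, with a range from -0.43 to -0.30. The secondary range lies wholly inside the primary one. Over all tested genes the median was -0.04.

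Array by array, the class means gave the same picture. Relative to the wild type mean of the class, the primary class stood at -0.37, -0.27 and -0.26 on coi1-13 replicates 1, 2 and 3, and the secondary class at -0.41, -0.32 and -0.36. Replicate 1 was the lowest in both classes. The secondary class minus the primary class came to -0.05, -0.05 and -0.10 on the 3 coi1-13 arrays, while the same quantity ran from -0.07 to 0.09 among the wild type arrays. Of the 3 coi1-13 values, 2 lay within the wild type range and that of replicate 3 lay below it. The mean of the 3 was -0.07, against an SD of 0.08 among the wild type arrays, and it was given no test because the members were chosen together. Within the primary class the changes were less alike. The 95% interval of CESA8 (-0.54 to -0.39) did not overlap those of CESA3 and CESA6, while the intervals of CESA1, CESA5 and the secondary wall genes overlapped one another.

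The size of a change depends on brightness on these arrays, so the members were also set against the brightest decile of tested probe sets, those with a mean log2 signal of at least 11.53. In that decile 37.3% of 3436 probe sets were lower in coi1-13 and 29.3% higher, with a median change of -0.03. It held 8 CESA probe sets, and all 8 were among the lower. The median change was 0.19 in the dimmest decile, reached its lowest value of -0.06 in decile 6 counted from the dimmest, and was -0.03 in the brightest. Cyclic loess, a scaling aimed at such a dependence, was added after the dependence was seen. It gave a mean change of -0.31 for the primary class and -0.36 for the secondary class, against -0.30 and -0.37 on the deposited scale. How far it removed the dependence was not checked by decile.

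**Figure D3:**
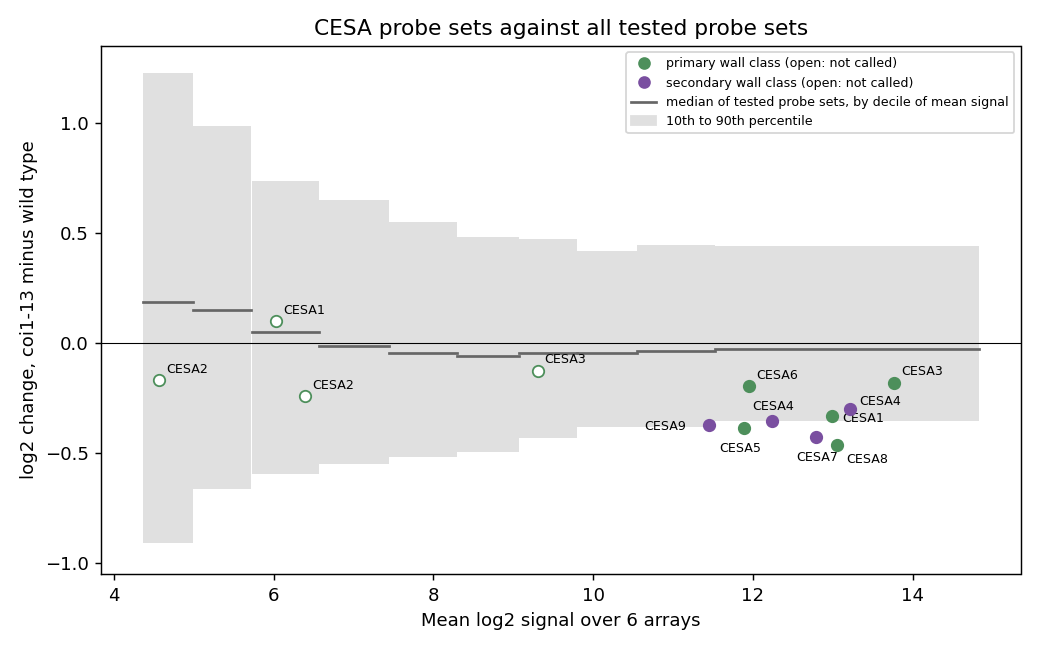
Log2 change (coi1-13 minus wild type) of the CESA probe sets against their mean log2 signal over 6 arrays. Grey blocks are the 10th to 90th percentile of change in each decile of the 34355 tested probe sets and dark lines their medians; the called CESA probe sets lie at mean signals from 11.45 to 13.76 and below the median of their decile.

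The direction of the CESA changes did not rest on 1 scaling or 1 array. Over the 9 called probe sets and all 13 alternatives the log2 change ran from -0.58 to -0.15, and 8 of the 9 kept their call throughout, the exception being CESA3. When single arrays were left out in turn, the mean change of the primary class ran from -0.34 to -0.27 and that of the secondary class from -0.39 to -0.34. The highest adjusted p of a called probe set among those fits was 0.0197 (limma). Median centring made every fall larger, with means of -0.42 and -0.49 for the classes, since it moved all probe sets down in coi1-13. Even the smallest of its called changes, -0.30 for CESA3, then lay below the shifted median of -0.13.

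**Figure D4:**
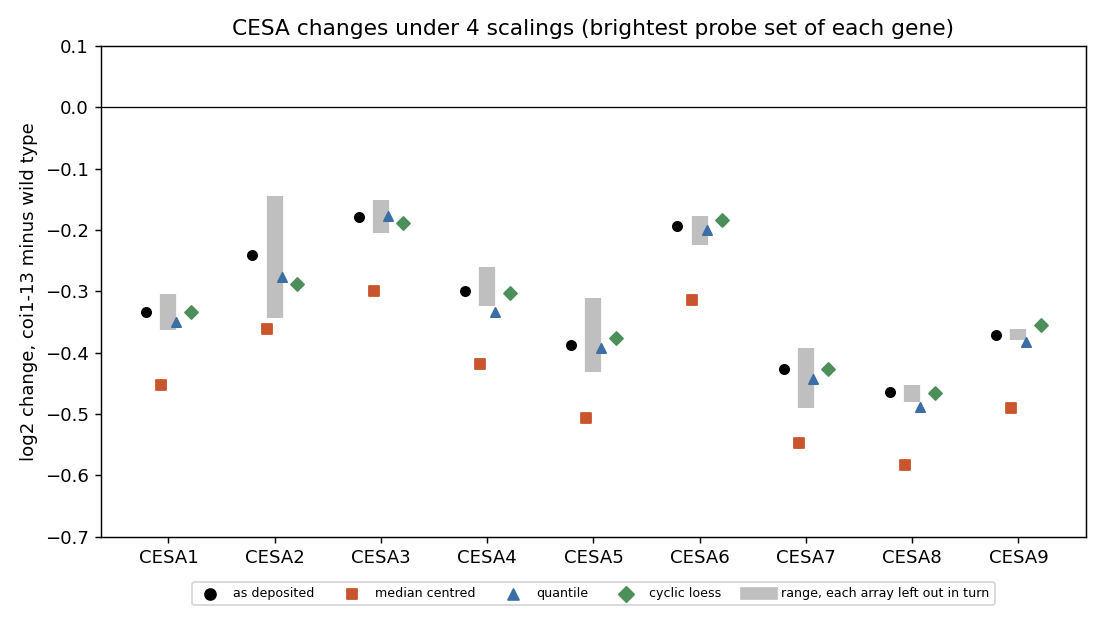
Log2 change (coi1-13 minus wild type) of the brightest probe set of each CESA gene on the deposited scale (black) and under median centring, quantile normalization and cyclic loess; grey bars give the range when each array is left out in turn. All points lie below 0, with median centring the lowest for each gene.

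Genes that work beside the cellulose synthases were counted in lists fixed by symbol, and many symbols matched no annotated gene. The lists, like the CESA members, were chosen with earlier results of these data known. The 34 symbols for partners of cellulose synthesis led to 12 genes, and the COBRA-like gene BC1 was left out because its name was ambiguous. For the CSL, lignin and expansin lists, 45, 98 and 58 symbols led to 25, 31 and 49 genes. The counts thus cover only a part of each group. Of 10 tested partners of cellulose synthesis (endoglucanases of the GLU family, COBRA-like proteins and brittle culm genes), 4 fell, 2 rose and 4 did not pass, with a median log2 change of -0.13 against -0.04 over all tested genes, of which 26.7% were lower and 21.2% higher. GDD1, a kinesin gene also known as BC12 that acts in the orientation of cellulose microfibrils, fell from 11.56 ± 0.04 to 11.28 ± 0.07 (SD, n = 3 each; limma adjusted p = 0.000772). Against this, the endoglucanase gene GLU8 rose 1.82-fold (limma adjusted p = 0.000103), and the COBRA-like gene BC1L9 rose 6.81-fold. FC1, a cinnamyl alcohol dehydrogenase gene of lignin synthesis that is listed there under its other name CAD7 too, fell by 0.43 (limma adjusted p = 0.00201). Under each of the other 3 scalings, too, 4 of the partners fell and 2 rose. Of the 34355 tested probe sets, 9522, 6556 and 6193 were lower under median centring, quantile normalization and cyclic loess. In the same order, 3721, 5752 and 5981 were higher.

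The CSL genes, the cellulose synthase-like relatives that make other wall glycans, were mixed. The test covered 15 of them, with 6 that fell and 2 that rose (median -0.17). Over all tested genes 26.7% were lower and 21.2% higher. CSLA1, of the mannan synthase family, fell 1.44-fold and its relative CSLA5 rose 1.45-fold (limma adjusted p = 3.77e-06 and 3.31e-05). CSLF6, the main synthase of the mixed-linkage glucan of grass walls, fell by 0.17 (limma adjusted p = 0.00552), about as much as CESA3. One probe set of CSLE2 fell by 0.31 (limma adjusted p = 0.0115) and its other tested ones, 2 in number, did not pass. The count of the 15 that fell was 4 under cyclic loess and 9 under median centring. Of all tested probe sets, 18.0% and 27.7% were lower under these scalings.

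Xylan is the hemicellulose that coats cellulose in grass walls. The 43 listed symbols of its synthesis led to 18 annotated genes. Of the 16 tested, 10 fell, 1 rose and 5 did not pass, with a median of -0.25. Over all tested genes 26.7% were lower and 21.2% higher. The count of the 16 that fell was 8 under cyclic loess and 13 under median centring, where 18.0% and 27.7% of all tested probe sets were lower. A probe set of a gene annotated as UGE-1, which is not in these counts, rose by 1.59 (limma adjusted p = 4.79e-09). GT43A, of the glycosyltransferase family that extends the xylan backbone, fell from 11.23 ± 0.03 to 10.76 ± 0.04 (SD, n = 3 each; limma adjusted p = 1.32e-05), a change of the size of CESA8. UAM1, a mutase that supplies arabinofuranose, fell by 0.37 (limma adjusted p = 4.86e-05), and UAM3 and XOAT11 fell by 0.62 and 0.51, with a dimmer UAM3 probe set that did not pass. Lignin genes numbered 20 in the test, with 9 that fell and 4 that rose (median -0.17). The laccase genes, whose products join lignin monomers, went both ways: LAC4 fell 2.23-fold and LAC7 rose 1.87-fold (limma adjusted p = 1.01e-05 and 7.28e-08), while CAD1 rose by 0.27.

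Expansins loosen the primary wall during growth. The test covered 21, of which 14 fell and 3 rose, against 26.7% lower and 21.2% higher over all tested genes. Their median was -0.32, close to the CESA median of -0.33. EXPA6, EXPB6 and EXPB11 fell by 0.93, 0.78 and 0.54, and the expansin-like EXLA2 rose by 0.79 (limma adjusted p from 6.1e-07 to 2.05e-06 for these 4). A list of 23 secondary wall regulators (NAC and MYB transcription factors) matched 0 genes of the annotation by symbol and was not analysed here.

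**Figure D5:**
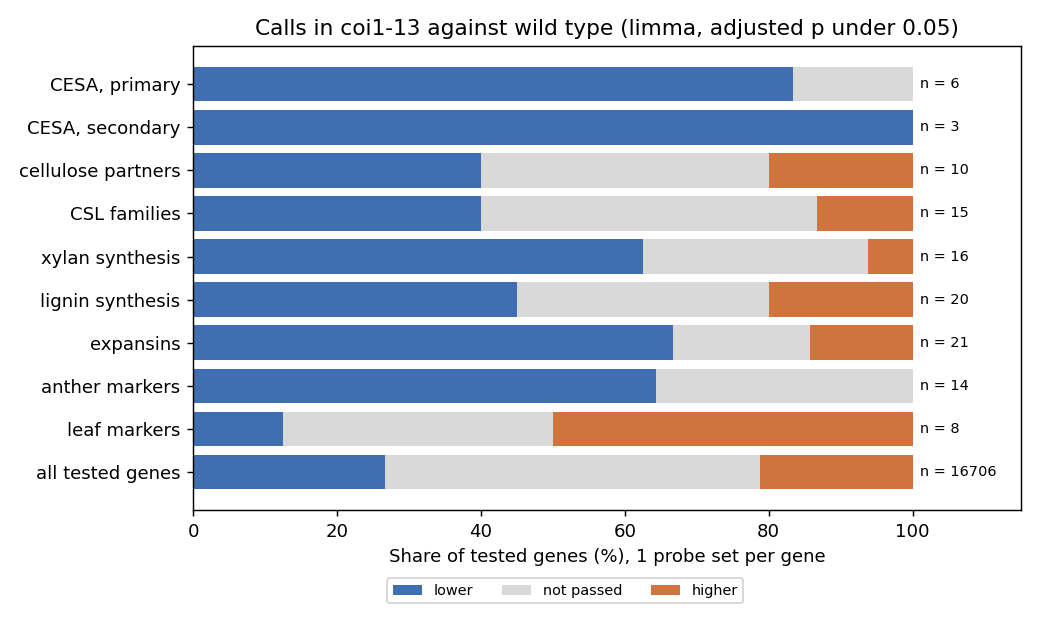
Share of tested genes (%) that were lower, not passed or higher in coi1-13 (limma, adjusted p under 0.05), 1 probe set per gene, for the CESA classes, the fixed lists and all 16706 tested genes; n is the number of tested genes. Of the CESA genes 8 of 9 were lower, against 26.7% of all tested genes.

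Markers of tissues that could lie beside the internode moved as well. For both marker lists the share over all tested genes is 26.7% lower and 21.2% higher. Of 14 tested anther and tapetum markers, 9 fell and 0 rose. At an unadjusted p under 0.05 the count that rose was also 0, and the share of all tested genes at that threshold was not counted. The sum of their linear signals lay between 57104 and 58110 in wild type and between 44903 and 48616 in coi1-13. None of the 14 was at 0 on any array, and 13 and 12 of them lay above the negative controls on all wild type and all coi1-13 arrays. The size of the change differed widely among these markers. CYP703A3 and EAT1, which act in the tapetum, changed by -3.04 and -1.19 on the log2 scale, and the brighter C4 by -0.91. The brightest, RTS and C6, went only from 14.40 to 14.29 and from 13.85 to 13.74, and PAIR2 from 8.97 to 9.02. Of 8 tested leaf photosynthesis markers 4 rose and 1 fell. Sums over 9 genes of that list lay between 54907 and 56257 in wild type and between 62365 and 64765 in coi1-13. Of these 9 genes, 8 exceeded the negative controls on all arrays of both genotypes. The exception was RBCS1, which exceeded them on none of the 6 arrays. Signal of the 8 photosynthesis genes was thus present, and whether it came from leaf tissue was not tested. The part of either tissue in the CESA changes was not tested.

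The profiles most like those of the CESA classes were found among 2890 tested probe sets of other named genes, by the root-mean-square distance between log2 profiles over the 6 arrays after centring each. For the primary class mean these were PP2C16, PP2C33, GNA1 and CDKF-4, at distances of 0.011 to 0.031. For the secondary class mean they were HOX2, PES, BURP3 and Hpt5, at 0.024 to 0.028. All 8 fell, by 0.27 to 0.39, and a distance this small says only that the level steps down by about the same amount between the genotypes.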

How the data were processed

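Total RNA of young uppermost internodes was hybridised as biotinylated cRNA to Affymetrix arrays of rice, 3 per genotype, per the labels. The deposited values were log2 signals of 57381 probe sets made by the authors with GCOS 1.4, per the submitters' processing notes; the probe-level steps are not given in the sources used here. The log2 scale was judged from the values: as powers of 2, the mean trimmed by 2% at each end was 500.07 on every array.

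Leaving out 123 controls, 57258 probe sets remained, and 22436 of them had a single gene in the platform annotation and were named through a RefSeq gene table (assembly ASM3414082v1), used for names only. No sequence of genes or probes was used.

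limma 3.58.1 in R 4.3.3 (lmFit, eBayes with trend, no block) was run on the deposited log2 values of all 34355 probe sets kept by a filter on mean signal (the upper 60%, at least 4.37), with Benjamini-Hochberg adjustment over all of them; 95% intervals are unadjusted. All 13 CESA probe sets passed this filter. The brightest probe set stood for a gene in class means and lists. The fit was tested on simulated data. Alternatives were median centring, quantile normalization, cyclic loess (added after seeing the data), no filter, the upper 40% by mean signal, no variance trend, the replicate number as a block, and each array left out in turn.

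The members and lists were chosen with earlier results of these data known. Genes named in the text were all CESA genes, at most 4 per list with the smallest p, and the 4 nearest profiles per class. RBCS1, UGE-1, RTS, C6 and PAIR2 were added after their values were seen.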

Additional observations from a re-analysis of the deposited data

How the results depend on the processing

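Counts of lower CESA probe sets stayed at 9 under the alternatives other than the fit without the variance trend, which gave 8 with the loss of CESA3 (adjusted p = 0.0636); none was higher under any. Median centring left 3721 probe sets higher over the whole array and moved the mean CESA changes to -0.42 (primary) and -0.49 (secondary), because the array medians were higher in coi1-13. Leaving out single arrays gave 4925 to 5273 higher and 5688 to 6091 lower probe sets, 9 lower CESA probe sets in each case, and class means from -0.34 to -0.27 and from -0.39 to -0.34. The sign of the change turned in 2 probe sets that did not pass, the dimmer ones of CESA1 and CESA3. For CESA1 the change was -0.0213 under median centring. With single arrays left out it ran from -0.1612 (without coi1-13 replicate 2) to 0.3277. For CESA3, with mean log2 signals of 9.37 in wild type and 9.24 in coi1-13, it ran from -0.2884 to 0.0266 (without wild type replicate 3). The cause was not tested. The replicate numbers are not stated to mark pairs, and the deviations of same-numbered arrays correlated at -0.0029, 0.0011 and 0.0004. No shared deviation was seen, but these values cannot tell whether same-numbered samples were grown or processed together. With the replicate number as a block, 9 CESA probe sets were lower, as were 6336 of all tested, and 5481 were higher. Dim signals limited what could be seen of CESA2 and of the second CESA1 probe set.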
